A study of Homo sapiens with 16 samples.

Results

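The replication licensing genes were examined as a set of 10, taken by gene symbol from the 34228 genes of the count table: *MCM2*, *MCM3*, *MCM4*, *MCM5*, *MCM6*, *MCM7*, *CDC6*, *CDT1*, *MCM10* and *CDC45*. RNA-Seq had been done on polyA RNA from 451Lu-R and 1205Lu-R, human melanoma cell lines selected for resistance to BRAF inhibitors (BRAFi-R) over months of rising doses of the BRAF inhibitor PLX4032 (vemurafenib) and maintained in PLX4032 afterwards. Each line received 2.5 μM corin or the vehicle DMSO for 24 h, which gave 4 groups of 2 libraries with 9516687 to 11797788 estimated counts each. Corin is a hybrid inhibitor of the CoREST repressor complex that acts on both its histone deacetylases and its histone demethylase LSD1. Of the 16 samples of the series, 8 had received PLX4032 with or without corin and are not analysed here. The sources used here do not say whether PLX4032 was withdrawn from the DMSO and corin cultures, and no drug-sensitive parental cells were in the comparison.

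Licensing is the step that restricts DNA replication to once per cell cycle. In G1, the origin recognition complex, CDC6 and CDT1 load the MCM2-7 complex, a ring of 6 different subunits, onto DNA as an inactive double hexamer. In S phase, CDC45 and the GINS complex join MCM2-7 to form the active CMG helicase, and MCM10 helps to set it in motion. Many of these genes are known targets of E2F transcription factors, and cells that leave the cell cycle lose their products.

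Promoter windows from RefSeq (GRCh38.p14, 250 bases before to 50 after the start) were found for 8 of the 10 genes, with none for *MCM4* and *MCM5*. *MCM7* and *CDC45* had 3 windows each, of which the one nearest the GENCODE 44 start was used. E2F-type letters were searched as the 4 forms TTTCCCGC, TTTCGCGC, TTTGCCGC and TTTGGCGC on both strands. They occurred in 3.31% of the 35116 windows in the table and in the windows of 6 of the 8 genes. The matches are shown because the genes are known E2F targets, and because genes with a match included both the most and the least reduced member in 451Lu-R (*MCM7* and *CDC6*). Each line gives 30 bases, 5′ to 3′ on the strand of the gene, with the match in capitals. A run of 12 capitals is a pair of overlapping matches on opposite strands.
MCM2 chr3:127598404-127598433 (+): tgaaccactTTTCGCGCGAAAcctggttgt
MCM3 chr6:52284898-52284927 (-): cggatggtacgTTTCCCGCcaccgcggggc
MCM3 chr6:52284728-52284757 (-): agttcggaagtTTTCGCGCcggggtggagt
MCM6 chr2:135876575-135876604 (-): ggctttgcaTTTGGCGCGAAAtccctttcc
MCM6 chr2:135876513-135876542 (-): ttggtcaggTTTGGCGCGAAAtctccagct
MCM7 chr7:100101566-100101595 (-): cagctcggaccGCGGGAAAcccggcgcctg
MCM7 chr7:100101388-100101417 (-): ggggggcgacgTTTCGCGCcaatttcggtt
CDC6 chr17:40287875-40287904 (+): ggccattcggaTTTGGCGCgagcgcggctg
CDT1 chr16:88803743-88803772 (+): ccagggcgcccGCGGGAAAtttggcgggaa

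Within these windows, *MCM6* had matches at bases -152 to -141 and -90 to -79 from the start, both of the overlapping kind. The *MCM2* match at bases 3 to 14 was also of that kind. *MCM3* had matches at -174 to -167 and across the start (-4 to 4), and *MCM7* at -187 to -180 and -9 to -2. *CDC6* had 1 match, at bases 8 to 15, and *CDT1* had 1 at -35 to -28. The windows of *MCM10* and *CDC45* held none of these letters, nor did the 2 windows of *CDC45* and the 2 of *MCM7* that were not used. The CCAAT letters bound by NF-Y were in the windows of 5 of the 8 genes and in 34.6% of all windows, and GC box letters (GGGCGG) in 6 of 8 and 45.0%. CHR letters (TTTGAA or TTCGAA), a motif of many mitotic genes, were in the window of 1 of the 8, *MCM6*, and in 16.4% of all windows. In *MCM7*, a CCAAT match at -2 to 3 shared 1 base with an E2F-type match. These are matches of letters and not shown binding sites.

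**Figure D1:**
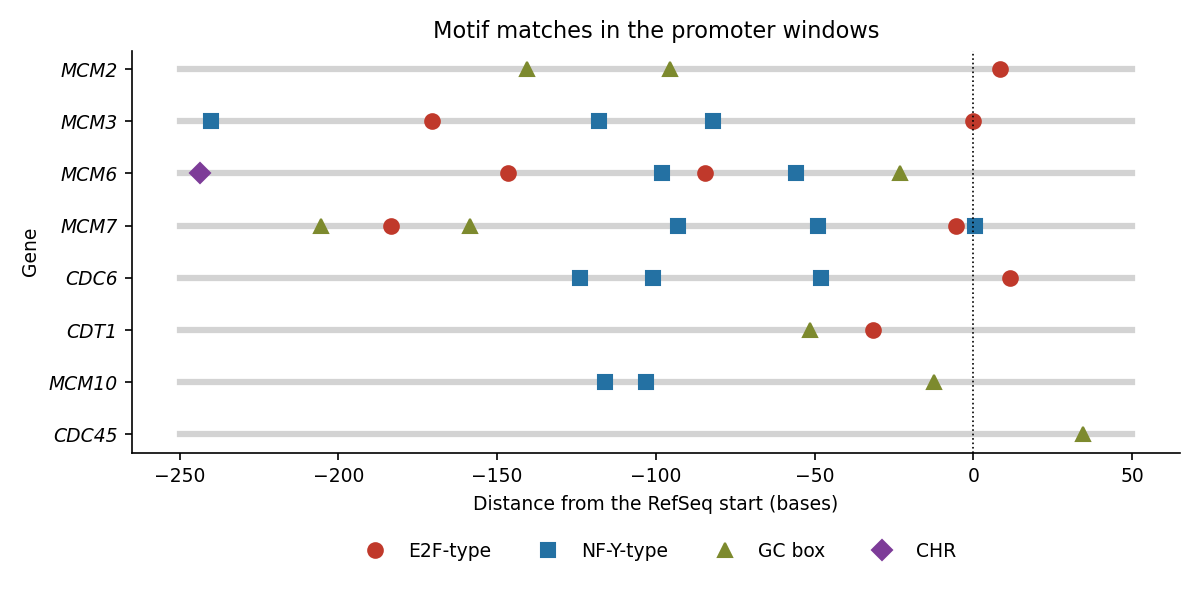
Motif matches in the RefSeq promoter windows of 8 replication licensing genes. The horizontal axis is the distance in bases from the start, grey bars are the windows (250 bases before to 50 after) and each symbol is the centre of a match. E2F-type matches (red circles) were in 6 of the 8 windows, and those of *MCM10* and *CDC45* had none.

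On the GRCh38 build, *MCM2* lies at chr3:127598410-127622436 on the plus strand and *MCM3* at chr6:52264014-52284881 on the minus strand. *MCM4* lies at chr8:47960185-47978160 (plus), *MCM5* at chr22:35400134-35425431 (plus), *MCM6* at chr2:135839626-135876443 (minus) and *MCM7* at chr7:100092233-100101940 (minus). *CDC6* lies at chr17:40287879-40304657, *CDT1* at chr16:88803789-88809258, *MCM10* at chr10:13161558-13211110 and *CDC45* at chr22:19479457-19520612, all on the plus strand. *AP4M1* overlaps *MCM7* on the opposite strand, unnamed noncoding genes overlap *MCM2* and *CDC45* in the same way, and the microRNA genes *MIR25*, *MIR93* and *MIR106B* lie within *MCM7*. The strandedness of the libraries was not given in the sources used here, so reads from overlapping stretches may have been shared between these partners.

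The label of melanoma cells was checked against marker genes. In 451Lu-R, all 7 melanocyte lineage markers were above 3 counts, and their summed level was 13200 to 13300 CPM (estimated counts scaled to the library's total) with DMSO and 11400 CPM with corin. In 1205Lu-R the same markers summed to 7.25 to 8.38 CPM with DMSO and 16.7 to 19.1 CPM with corin, and *SOX10*, a defining factor of the lineage, was at 0 counts in all 4 libraries. Undifferentiated melanoma markers (*AXL*, *NGFR*, *EGFR*, *WNT5A*) summed to 1250 to 1260 CPM with DMSO and 803 to 815 CPM with corin in 1205Lu-R, although *NGFR* alone rose there, from 5.60 and 6.12 CPM to 206 and 199 CPM. In 451Lu-R they summed to 8.02 to 8.07 CPM (DMSO) and 371 to 379 CPM (corin), with 4 of 4 raised, where 41.3% of all genes rose. *AXL* started there from 2.4 and 0 counts with DMSO. Among lists of other cell types, leukocyte markers summed to at most 1.80 CPM in any library and keratinocyte markers to 17.6 to 32.6 CPM. Fibroblast markers summed to 49.8 to 53.5 CPM (DMSO) and 111 to 117 CPM (corin) for 451Lu-R. There 3 of 3 were raised, with *DCN* starting from 1 and 2 counts. For 1205Lu-R the fibroblast markers summed to 196 CPM (DMSO) and 92.2 to 95.3 CPM (corin), and 2 of the 3 were at 3 counts or fewer. Endothelial markers summed to 1.35 to 1.47 CPM (DMSO) and 8.39 to 9.10 CPM (corin) for 451Lu-R, and to 10.7 to 10.8 CPM and 24.0 to 27.6 CPM for 1205Lu-R. The part of these markers in the results was not tested. All 10 replication licensing genes passed the filter on low counts in every fit. Their smallest value was 69 counts, for *CDC45* in a 1205Lu-R corin library.

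Replication licensing gene expression was lower with corin in both lines. With edgeR's quasi-likelihood test and Benjamini-Hochberg adjustment, 9 of 10 fell in 451Lu-R at an adjusted p under 0.05, where 38.6% of the 14530 genes tested fell. All 10 fell in 1205Lu-R, where 37.8% of 14563 genes fell. At least 2-fold reductions were called for 9 of 10 in 451Lu-R (13.3% of all genes) and 9 of 10 in 1205Lu-R (9.8% of all genes). *CDC6* was the member outside these counts in each case. None of the 10 rose, against 41.3% and 40.4% of all genes. The median log2 difference of the 10 was -1.57 for 451Lu-R and -1.65 for 1205Lu-R, and over all genes tested it was 0.03 in each line. Summed over the 10, the level went from 1298 and 1302 CPM with DMSO to 429 CPM in each of the 2 corin libraries of 451Lu-R. In 1205Lu-R the sum went from 1855 and 1897 CPM to 634 and 639 CPM. In bulk RNA, fewer cycling cells and less of these transcripts per cell cannot be told apart.

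**Figure D2:**
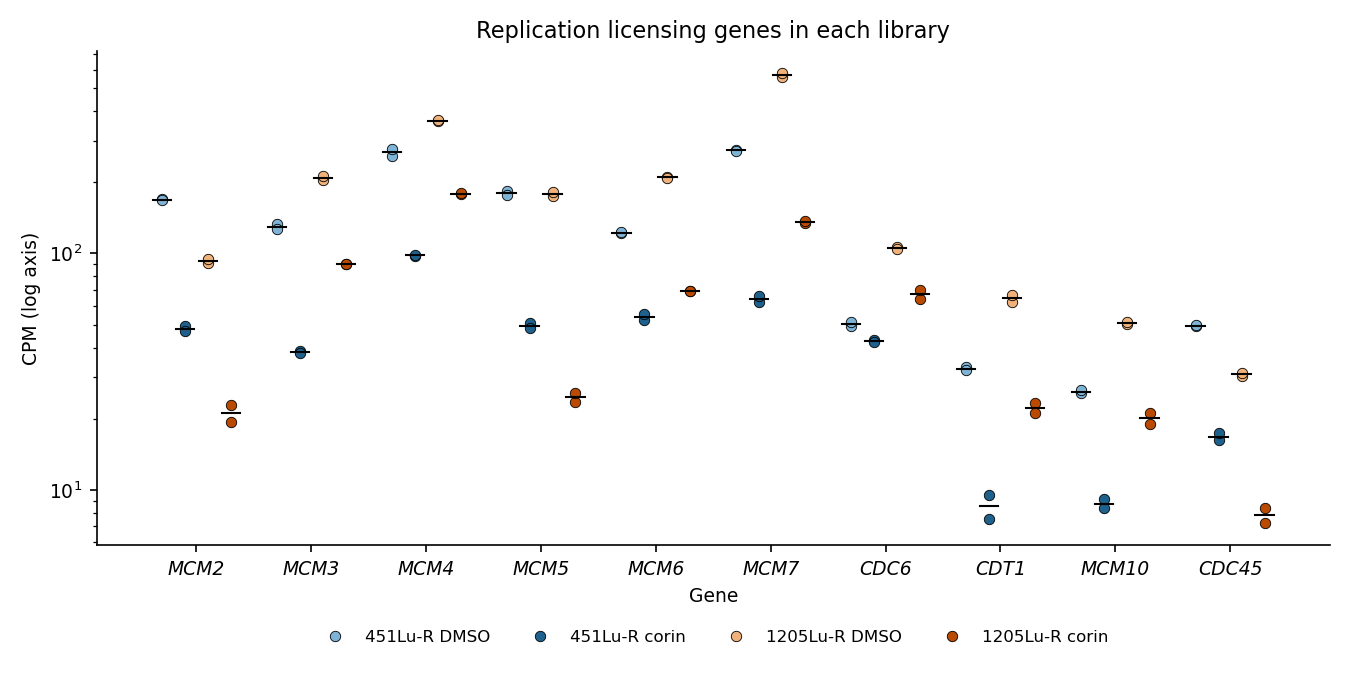
Levels of the 10 replication licensing genes in each of the 8 libraries. The vertical log axis is CPM, points are libraries and black lines are the means of 2. Of the 10 genes, 9 were called as fallen in 451Lu-R, where 38.6% of all genes were, and 10 in 1205Lu-R, where 37.8% were. Corin and DMSO libraries lay closest for *CDC6* in 451Lu-R (42.9 against 49.2 CPM), a change that was not called.

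The 6 genes of the helicase ring fell at least 2-fold in both lines. *MCM7*, whose protein stands beside MCM4 in the ring, stood at 273.5 and 272.7 CPM in the DMSO libraries of 451Lu-R and at 62.3 and 65.9 CPM with corin. In 1205Lu-R it went from 559.6 and 579 CPM to 135 and 137 CPM. These were falls to 25.1% (log2 difference -1.99, SE 0.0383, adjusted p = 8.55e-20) and 22.7% of the DMSO level (-2.14, SE 0.0347, adjusted p = 1.27e-22), and the reduction in 451Lu-R was the deepest among the 10. *MCM7* stayed higher in the corin libraries of 1205Lu-R than in those of 451Lu-R.

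*MCM5*, the subunit at the MCM2-MCM5 gate through which the ring opens around DNA, was at 184 and 176 CPM in 451Lu-R with DMSO and 50.7 and 48.3 CPM with corin. The DMSO libraries of 1205Lu-R had nearly the same level, 176 and 182 CPM, but the corin libraries had 23.6 and 25.6 CPM. The fall was thus to 29.4% in 451Lu-R (log2 difference -1.77, SE 0.0461) and to 13.1% in 1205Lu-R (-2.93, SE 0.0527, adjusted p = 8.4e-22), which at 7.62-fold was the deepest of any member in either line. *MCM2*, the other subunit of the gate and a histone chaperone, had 169 and 168 CPM in the DMSO libraries and 49.5 and 46.8 CPM in the corin libraries of 451Lu-R. The 1205Lu-R libraries had 91.0 and 94.4 CPM with DMSO and 22.8 and 19.4 CPM with corin. The remaining levels were 30.7% (log2 difference -1.70, SE 0.0458) and 21.5% (-2.22, SE 0.0688). Both genes of the gate therefore ended lower in 1205Lu-R than in 451Lu-R under corin.

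*MCM6*, which together with MCM4 and MCM7 forms a subcomplex with helicase activity, was reduced from 122 and 123 CPM to 52.5 and 55.2 CPM in 451Lu-R. Its 1205Lu-R level dropped from 211.5 and 208 CPM to 69.1 CPM in each corin library. The remaining levels were 47.1% (log2 difference -1.09, SE 0.0487) and 31.3% (-1.67, SE 0.0396). *MCM3*, a partner of MCM5 in the ring, showed the reverse order between lines, with 133 and 127 CPM reduced to 38.8 and 38.1 CPM in 451Lu-R. Its 1205Lu-R level dropped from 205 and 213 CPM to 89.8 and 90.0 CPM. These were reductions to 31.7% (-1.66, SE 0.0523) and 40.9% (-1.29, SE 0.0392). *MCM4*, another subunit of the ring, had 259.5 and 276 CPM with DMSO and 97.9 and 98.7 CPM with corin in 451Lu-R. The 1205Lu-R libraries had 363 and 366 CPM with DMSO and 178 and 179.5 CPM with corin. It kept 39.4% (-1.34, SE 0.0384) and 46.6% of its DMSO level (-1.10, SE 0.032), the smallest reduction of the ring genes in 1205Lu-R. *MCM6* held that place in 451Lu-R. The adjusted p of *MCM2* to *MCM7* was at most 6.44e-14 for 451Lu-R and 1.06e-17 for 1205Lu-R (edgeR).

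The loading factors parted from each other. *CDT1*, which brings MCM2-7 to origins and is destroyed in S phase to block reloading, went from 32.9 and 32.1 CPM to 9.49 and 7.51 CPM in 451Lu-R. In 1205Lu-R it went from 62.2 and 67.0 CPM to 23.4 and 21.1 CPM. Its reductions were to 28.3% (log2 difference -1.82, SE 0.11, adjusted p = 7.51e-12) and 32.6% (-1.62, SE 0.0752, adjusted p = 1.3e-14). *CDC6*, the ATPase that completes the loading complex on origin-bound ORC, had 49.2 and 51.1 CPM in 451Lu-R with DMSO and 42.9 and 42.2 CPM with corin. Although the groups did not overlap, the difference of -0.14 (95% interval -0.28 to 0.004, adjusted p = 0.0691) did not pass the threshold. In 1205Lu-R *CDC6* fell from 106 and 104 CPM to 64.2 and 70.0 CPM, to 60.9% of the DMSO level (-0.72, SE 0.0485, adjusted p = 9.88e-12). It had the smallest change of the 10 in both lines.

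The ratio of *CDC6* to *CDT1* CPM within a library, which does not depend on scaling between libraries, was 1.49 and 1.59 in the DMSO libraries of 451Lu-R and 4.52 and 5.61 in its corin libraries. In 1205Lu-R the DMSO libraries had ratios of 1.71 and 1.55, and the corin libraries 2.75 and 3.32. The DMSO libraries of both lines thus had like ratios, and the corin libraries had higher ones in both lines, with the highest in 451Lu-R. *CDC6* in 451Lu-R passed the threshold, at -0.23, when plain library sizes replaced the TMM factors, a setting that moved the median of all genes in this comparison to -0.07. Relative to that median the value was -0.17.

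Helicase activation genes fell in both lines. *MCM10* had 25.6 and 26.4 CPM in the DMSO libraries and 8.39 and 9.11 CPM in the corin libraries of 451Lu-R. The 1205Lu-R libraries had 50.5 and 51.3 CPM with DMSO and 21.2 and 19.0 CPM with corin. It kept 36.0% (log2 difference -1.47, SE 0.11, adjusted p = 2.11e-10) and 37.4% (-1.42, SE 0.0782, adjusted p = 2.71e-13), the closest pair of values in the set. *CDC45*, the CMG subunit that is limiting for origin firing in many cells, went from 49.5 and 49.7 CPM to 16.2 and 17.4 CPM in 451Lu-R. In 1205Lu-R it went from 30.4 and 31.4 CPM to 7.25 and 8.37 CPM, the lowest levels of the 10 genes in that line. The remaining shares were 36.2% (-1.47, SE 0.0802, adjusted p = 1.54e-12) and 24.2% (-2.05, SE 0.112, adjusted p = 2.18e-13).

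**Figure D3:**
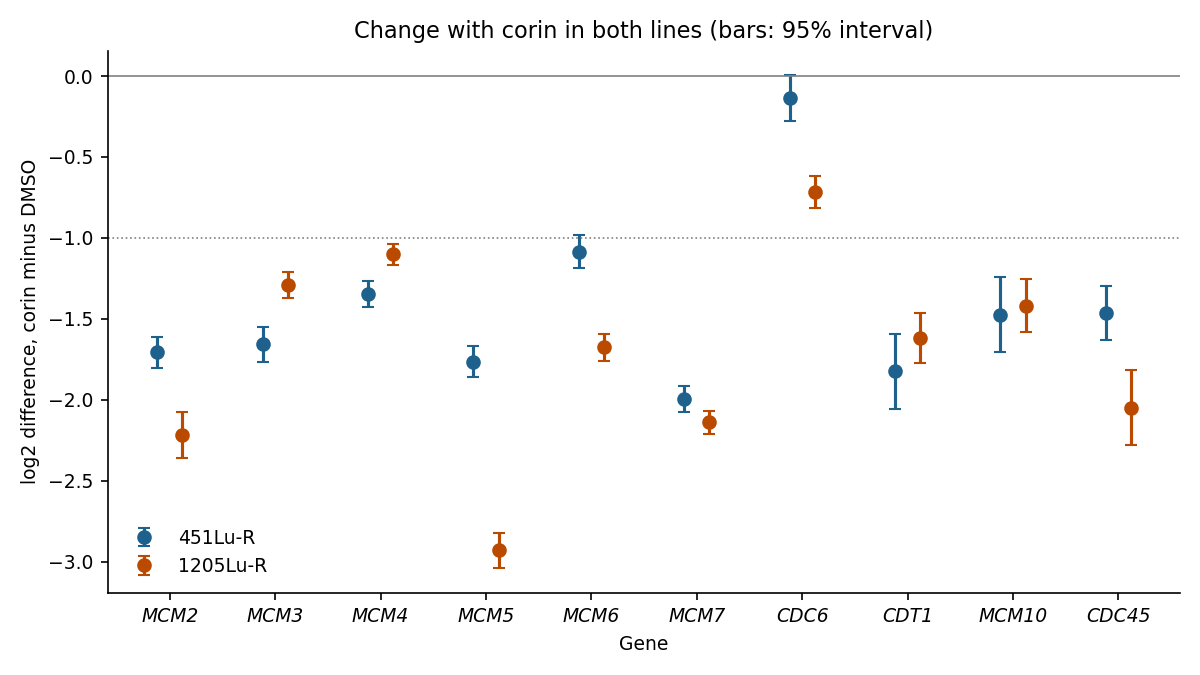
Change of each replication licensing gene with corin. The vertical axis is the log2 difference, corin minus DMSO, with 95% intervals from the edgeR fit of 4 libraries per line, and the dotted line marks a 2-fold reduction. *CDC6* lay above that line in both cell lines, and *MCM5* in 1205Lu-R was lowest, at -2.93.

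The size of the change was next compared between the lines in a fit of all 8 libraries, as the difference of the log2 differences (1205Lu-R minus 451Lu-R). It was called for 8 of the 10 genes, where 49.7% of 16062 genes were called. Corin reduced 6 genes further in 1205Lu-R. *MCM5* had the largest difference, -1.20 (SE 0.0828, adjusted p = 7.44e-11), followed by *MCM6* with -0.63 (SE 0.0638, adjusted p = 3.59e-08), *CDC45* with -0.62 (SE 0.138, adjusted p = 0.000705), *CDC6* with -0.62 (SE 0.0793, adjusted p = 1.04e-06) and *MCM2* with -0.55 (SE 0.09, adjusted p = 2.56e-05). *MCM7* had a small difference, -0.18 (SE 0.0593, adjusted p = 0.0144). It was -0.13 and no longer called without the second 451Lu-R corin library, and 0.03 with plain library sizes, which moved the median of all genes to 0.20. *MCM3* and *MCM4* were reduced less in 1205Lu-R, by 0.33 (SE 0.0685, adjusted p = 0.000383) and 0.20 (SE 0.0528, adjusted p = 0.00279). *CDT1* differed by 0.17 (95% interval -0.13 to 0.46, adjusted p = 0.359) and *MCM10* by 0.02 (-0.25 to 0.29, adjusted p = 0.965), and neither passed the threshold. Subunits of one equimolar ring thus differed between lines in opposite directions.

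The lines also differed in their levels before corin. With DMSO all 10 genes differed, where 75.4% of all genes did. Higher in 1205Lu-R were 8 genes, among them *CDC6* (log2 difference 1.19, SE 0.0516), *MCM7* (1.18, SE 0.0282), *CDT1* (1.11, SE 0.073) and *MCM10* (1.09, SE 0.073), each more than 2-fold. *MCM6* (0.90), *MCM3* (0.81) and *MCM4* (0.57) were higher by less. *MCM2* (-0.74, SE 0.0427, adjusted p = 6.95e-13) and *CDC45* (-0.56, SE 0.0705, adjusted p = 3.1e-07) were lower in 1205Lu-R. *MCM5* was at a near-equal level, with a difference of 0.11 (SE 0.0365, adjusted p = 0.0101) that was not called under several other settings. With corin, all 10 again differed (76.9% of all genes), 7 higher and 3 lower in 1205Lu-R. The 3 lower genes were *MCM2* (-1.29, SE 0.0769), *CDC45* (-1.18, SE 0.116) and *MCM5* (-1.09, SE 0.0741), so that *MCM5* changed from near equality with DMSO to 46.9% of the 451Lu-R level with corin.

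The makeup of the helicase transcripts was compared per length, as estimated counts per kb of union exonic length, scaled to the same total in each library. With DMSO in 451Lu-R, *MCM7* was highest at 219 ± 0.95 (SD, n = 2), followed by *MCM2* at 142 ± 1.31 and *MCM3* at 142 ± 4.66, which did not differ beyond their spread. *MCM6* (118 ± 0.639), *MCM4* (108 ± 4.45) and *MCM5* (98.7 ± 3.32) came next. In 1205Lu-R with DMSO, *MCM7* was at 506 ± 13.1, *MCM3* at 253 ± 7.70 and *MCM6* at 224 ± 2.37, and *MCM2* was lowest of the ring at 86.7 ± 2.43. With corin, *MCM6* (47.7 ± 1.72) and *MCM7* (47.4 ± 1.88) headed the ring in 451Lu-R and did not differ beyond their spread. In 1205Lu-R with corin, *MCM7* (115 ± 0.961) and *MCM3* (104 ± 0.0308) were highest and *MCM2* (18.8 ± 2.20) and *MCM5* (14.3 ± 0.832) lowest. Outside the ring, *MCM10* was lowest in 451Lu-R with corin at 5.88 ± 0.339 and *CDC45* in 1205Lu-R with corin at 11.0 ± 1.11.

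As a share of the 6 ring genes, *MCM5* transcripts went from 11.9% ± 0.327 to 10.7% ± 0.41 in 451Lu-R and from 8.09% ± 0.0603 to 3.57% ± 0.209 in 1205Lu-R (SD, n = 2). The share of *MCM7* fell from 26.5% to 20.4% in 451Lu-R and from 37.7% to 28.9% in 1205Lu-R. *MCM4* took a larger share with corin in both lines (13.1% to 15.7%, and 12.2% to 19.1%). *MCM6* did so mainly in 451Lu-R (14.2% to 20.5%, against 16.7% to 17.6%) and *MCM3* in 1205Lu-R (18.9% to 26.0%, against 17.1% to 16.6%). *MCM2* went from 17.2% to 16.1% in 451Lu-R and from 6.47% to 4.72% in 1205Lu-R. The order of the genes depended on the length used, above all for *MCM4*, whose union exonic length is 9852 bases against 4062 for its canonical transcript. With canonical lengths *MCM7* was highest in all 4 groups, *MCM4* was second in all 4, and *MCM5* went from 9.88% to 4.45% in 1205Lu-R.

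**Figure D4:**
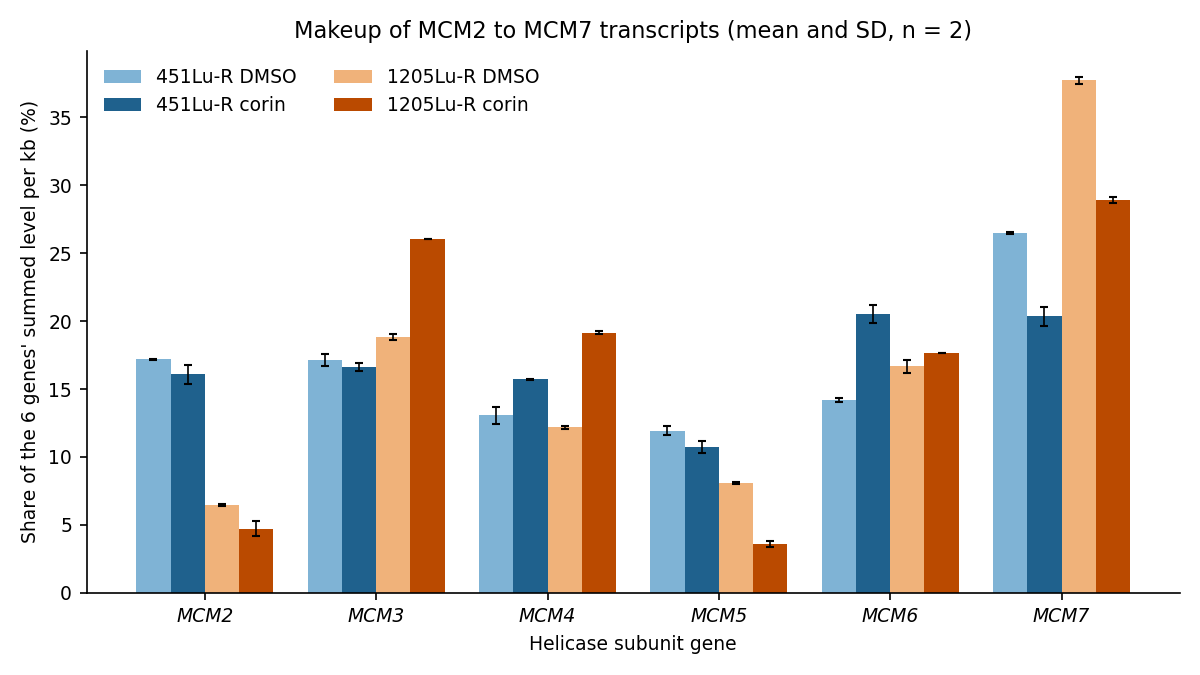
Share of each ring gene in the summed per-length level of *MCM2* to *MCM7*. Bars are means of 2 libraries in percent and error bars are SD. The share of *MCM5* in 1205Lu-R was 8.09% with DMSO and 3.57% with corin, whereas in 451Lu-R it was 11.9% and 10.7%.

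The ratio between ring genes in single libraries gave the same picture without lengths. *MCM3* to *MCM5* CPM was 0.72 and 0.721 in the DMSO libraries of 451Lu-R and 0.766 and 0.789 in its corin libraries. The 1205Lu-R libraries had 1.16 and 1.17 for DMSO, and 3.81 and 3.51 for corin. *MCM7* to *MCM5* went from 1.48 and 1.55 to 1.23 and 1.36 in 451Lu-R, and from 3.18 in each DMSO library to 5.73 and 5.33 in 1205Lu-R. *MCM6* to *MCM5* went from 0.659 and 0.697 to 1.04 and 1.14 in 451Lu-R, and from 1.20 and 1.14 to 2.93 and 2.69 in 1205Lu-R. *MCM5* thus lost ground to all 3 genes in 1205Lu-R, whereas 451Lu-R showed this for *MCM6* and, by a small margin, *MCM3*. Ratios to *MCM2* and *MCM4* were not taken. By the fits, *MCM4* kept 39.4%, *MCM2* 30.7% and *MCM5* 29.4% of the DMSO level in 451Lu-R. In 1205Lu-R they kept 46.6%, 21.5% and 13.1%. *MCM5* therefore lost ground to *MCM4* in 451Lu-R too.

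Genes that act around the 10 were read from lists of replication genes. Over 5 lists with 58 genes tested, 44 fell and 6 rose in 451Lu-R (median log2 difference -0.72), and 45 fell and 6 rose in 1205Lu-R (-0.64). Over all genes, 38.6% and 37.8% fell. Of 12 origin firing genes, 11 were reduced in each line. The largest falls were those of *DBF4B*, an activator of the CDC7 kinase that starts origins, in 451Lu-R (-1.78, SE 0.141) and of the GINS subunit gene *GINS2* in 1205Lu-R (-2.50, SE 0.0833). *GINS4*, another GINS subunit gene, rose in 451Lu-R (0.58, SE 0.0778). Of 25 replication fork genes, 19 fell and 1 rose in 451Lu-R, and 20 fell and 1 rose in 1205Lu-R. Among them were *POLE2*, a DNA polymerase ε subunit (-1.98, SE 0.27 in 451Lu-R), and *POLD3*, a DNA polymerase δ subunit (-2.19, SE 0.129 in 1205Lu-R). The rises were those of *RPA1*, the large subunit of the single-strand binding complex (0.23, SE 0.025 in 451Lu-R), and *RFC5*, a clamp loader subunit (0.38, SE 0.0827 in 1205Lu-R). The clamp gene *PCNA*, named here after its values were seen, stood beside *CDC6* (-0.14 and -0.72) with 0.02 (SE 0.0332, adjusted p = 0.591) in 451Lu-R and -0.59 (SE 0.0362, adjusted p = 2.02e-12) in 1205Lu-R.

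Origin recognition genes, which act just before CDC6 and CDT1, did not move one way. Of 7, 3 fell and 2 rose in 451Lu-R (median -0.15), and 2 fell and 4 rose in 1205Lu-R (median 0.26). Of all genes, 38.6% fell and 41.3% rose in 451Lu-R, and 37.8% fell and 40.4% rose in 1205Lu-R. A mix of directions was thus not particular to this list. *ORC1*, the subunit whose level varies with the cell cycle, had the largest falls (-1.46, SE 0.13 and -1.56, SE 0.114), and *ORC4* the largest rises (1.21, SE 0.0527 and 1.33, SE 0.0634). Among 10 genes that inhibit or degrade licensing factors, 7 fell and 2 rose in 451Lu-R, and 8 fell and 1 rose in 1205Lu-R. *SKP2*, a ubiquitin ligase subunit that targets CDT1, had the largest fall in 451Lu-R (-1.48, SE 0.0879) and *DTL*, the CUL4 adaptor for CDT1, in 1205Lu-R (-2.16, SE 0.076). The largest rises were *CUL4B* with 0.41 (SE 0.0733) in 451Lu-R and *SKP1* with 0.11 (SE 0.0298) in 1205Lu-R. The other MCM family genes and partners fell in 4 of 4 cases in each line, led by *MCM8* in 451Lu-R (-1.26, SE 0.0733) and *MCM9* in 1205Lu-R (-1.47, SE 0.198), which work together in DNA repair.

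E2F and RB factors, the transcriptional regulators of many licensing genes, had 9 of 13 genes reduced in each line. Of the 13, 2 rose in 451Lu-R and 3 in 1205Lu-R. Among all genes tested, falls were called for 38.6% and rises for 41.3% when 451Lu-R received corin. For 1205Lu-R these shares were 37.8% (falls) and 40.4% (rises). *E2F3*, an activator of S phase genes, had the largest fall in 451Lu-R (-2.54, SE 0.108) and *E2F2*, another activator, in 1205Lu-R (-1.93, SE 0.124). *RB1*, which binds and restrains the activators, had the largest rise in 451Lu-R (1.02, SE 0.0433), but in 1205Lu-R it fell by 0.26 on the log2 scale (SE 0.051). In 1205Lu-R the largest rise was that of *E2F5*, a repressor E2F (1.46, SE 0.158).

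Markers of G2 and mitosis moved with the licensing genes in 451Lu-R, but less so in 1205Lu-R. In 451Lu-R, 15 of 15 fell (median -1.77), led by *CENPF* (-2.45, SE 0.0467), and their summed level went from 2100 and 2139 CPM to 691 and 693 CPM. Of all genes, 38.6% fell in 451Lu-R, and 37.8% fell and 40.4% rose in 1205Lu-R. In 1205Lu-R, 10 fell and 4 rose (median -0.36), and the sum went from 2762 and 2802 CPM to 2346 and 2384 CPM. *AURKA*, a mitotic kinase, fell most there (-1.06, SE 0.0392) and *CDK1*, the kinase that drives entry into mitosis, rose most (0.68, SE 0.0388). The difference between the lines was positive and called for 15 of 15 of these genes, with a median of 1.21. It was called in either direction for 49.7% of all genes. Over the 10 licensing genes, 6 differences were negative and 2 positive among the 8 called. These markers of cycling cells moved with the licensing genes in 451Lu-R, and their part in the results was not tested.

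**Figure D5:**
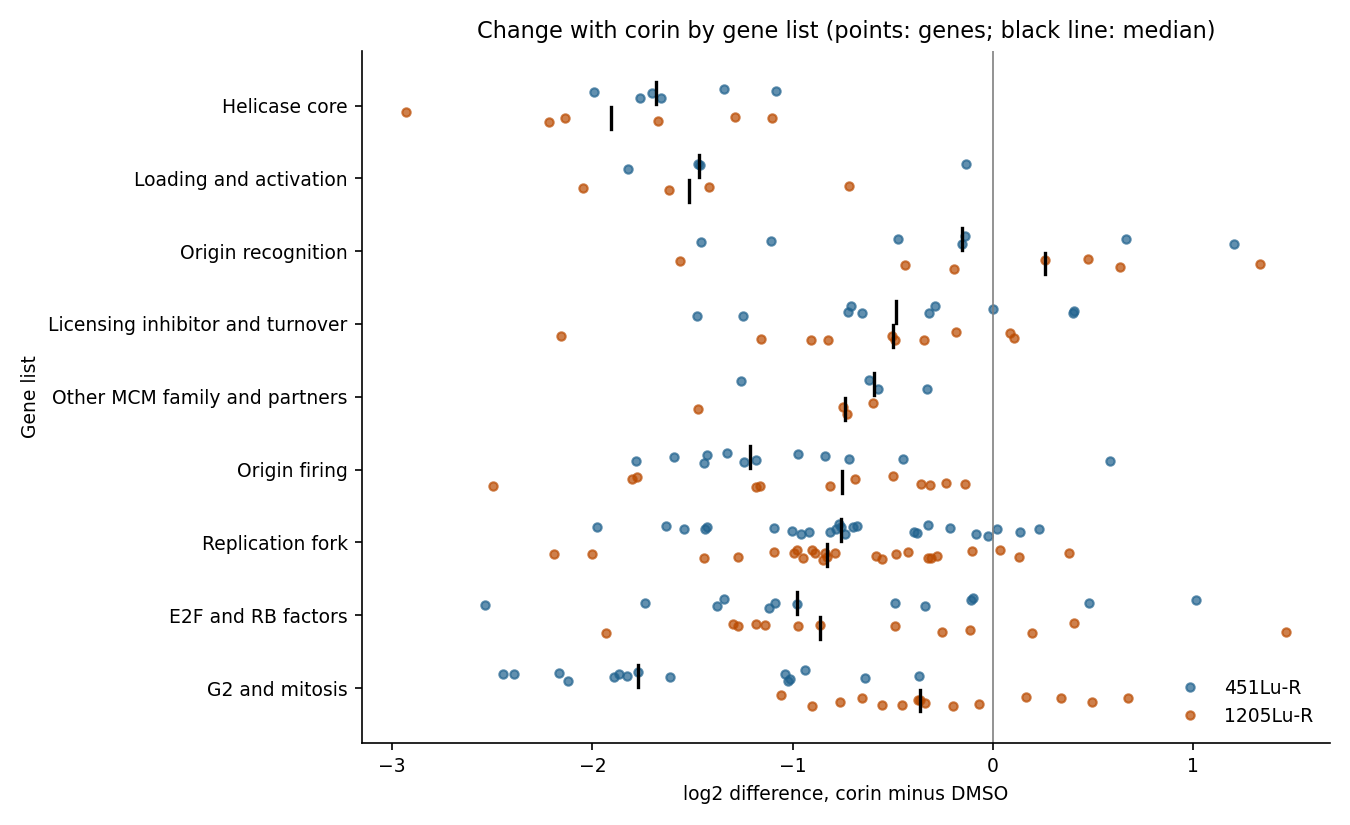
Change with corin by gene list in both lines. The horizontal axis is the log2 difference, corin minus DMSO, points are genes with a small vertical scatter for display, and black lines are medians. The helicase core had medians of -1.68 (451Lu-R) and -1.91 (1205Lu-R), whereas G2 and mitosis markers had medians of -1.77 and -0.36.

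Neighbours that start within 1000 bases of a licensing gene on the opposite strand were also read. *PRKDC*, the catalytic subunit gene of DNA-dependent protein kinase, starts 7 bases from *MCM4* and fell in both lines, by 0.55 and 0.70 on the log2 scale (SE 0.0208 and 0.0259), where *MCM4* fell by 1.34 and 1.10. *TPRA1* starts 143 bases from *MCM2* and rose in 451Lu-R (0.78, SE 0.0681), from 36.2 and 38.5 CPM to 58.2 and 61.7 CPM. In 1205Lu-R *TPRA1* had a difference of 0.16 that did not pass the threshold (adjusted p = 0.0904). *UFD1*, a cofactor of the p97 ATPase, starts 255 bases from *CDC45* and fell in both lines (-0.67 and -0.71). *AP4M1*, which starts 391 bases from *MCM7* and overlaps it, fell in both lines (-1.06 and -1.39). In each line *TPRA1* alone of the 4 neighbours did not fall, where 38.6% (451Lu-R) and 37.8% (1205Lu-R) of all genes fell. Differences between a gene and its neighbour were not tested.

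The genes most like the ring in pattern were ranked by Pearson's r of log2 CPM with the mean of *MCM2* to *MCM7* over the 8 libraries, which share 4 group means and the scaling to library totals. The 5 highest of 16056 genes were *CIC* (0.9995), *PRMT1* (0.9988), *GHITM* (0.9981), *SNRPA1* (0.9978) and *CDC25A* (0.9976). Their changes were smaller than the median of the ring genes (-1.68 and -1.91) except for *CDC25A*, the phosphatase that activates S phase kinases. *CDC25A* went from 26.8 and 28.8 CPM to 3.73 and 3.60 CPM in 451Lu-R, and from 37.2 and 37.5 CPM to 5.25 and 5.85 CPM in 1205Lu-R. These were reductions of 7.04-fold in each line (-2.81, SE 0.134 and -2.82, SE 0.113), and the difference between lines was -0.04 (95% interval -0.46 to 0.38). *CDT1* had an r of 0.896 with the ring, *MCM10* 0.883 and *CDC45* 0.807, whereas *CDC6* had 0.587 and ranked 3495.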

How the data were processed

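Paired-end reads were trimmed by the authors (Trimmomatic) and assigned with salmon to GENCODE 32 transcripts, whose estimated counts were summed per gene (versions are not given in the sources used here). The authors deposited estimated counts per gene, without normalization, for 8 libraries. The deposited tables on PLX4032 plus corin against PLX4032 hold the authors' own fold changes and p-values and were not used. Of 34228 genes, 34052 were matched to GENCODE 44 names, positions and lengths (both releases are GRCh38). The 10 members and the lists were chosen with earlier results of these data known. Genes named besides the members were, in each list and line, the largest fall and rise among called genes, opposite-strand neighbours, the 5 most alike genes and state markers.

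Counts were rounded and tested with edgeR 4.0.16 in R 4.3.3 (filterByExpr, TMM, glmQLFit and glmQLFTest, 2-sided, Benjamini-Hochberg adjustment over all genes tested). Corin was compared with DMSO per line on 4 libraries, and lines were compared on all 8. A call was an adjusted p under 0.05. Percentages of the DMSO level come from the fits and include TMM factors of 0.967 to 1.04, so they differ slightly from CPM ratios. SE was derived from the log2 difference and the test statistic (F) of each fit. The 95% intervals were built from that SE and the t distribution. Correlations used log2(CPM + 0.5). The estimated counts give counting precision only. The fits were also run on simulated counts with far fewer changed genes than were called here. That run does not test them under changes as broad as these. DESeq2 1.42.0 was an alternative.

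Between replicates, the chi-square of the counts divided by its degrees of freedom was 1.34 to 1.41 over genes with at least 20 counts, so they differed by more than sampling noise. Nothing in the labels says that the libraries came from separate cultures, so p-values measure only the spread between these libraries, which may be technical. The labels give no batch or date.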

Additional observations from a re-analysis of the deposited data

Results flagged for a closer look

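For 8 replication licensing genes, the change with corin differed between 1205Lu-R and 451Lu-R by a test of the difference itself (edgeR's quasi-likelihood test, 8 libraries, adjusted over all genes), in a comparison that called 49.7% of all genes. On the log2 scale, 1205Lu-R minus 451Lu-R, the values were -1.20 for *MCM5*, -0.63 for *MCM6*, -0.62 for *CDC45*, -0.62 for *CDC6*, -0.55 for *MCM2* and -0.18 for *MCM7*, and 0.33 for *MCM3* and 0.20 for *MCM4*.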

How the results depend on the processing

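The alternatives were DESeq2, RLE size factors, plain library sizes, other filters on low counts, all libraries in one fit and a replicate block. Each library was also left out in turn. For corin against DMSO, a stricter threshold (adjusted p under 0.001) was added, which can change calls but not directions. Across all of these, 647 of 660 values of single members kept their direction and side of the threshold. Counts of members that fell stayed at 9 in 451Lu-R (10 with plain library sizes) and 10 in 1205Lu-R, and the 2-fold counts at 9 in each. With the replicate block, 8 members still differed in their response and 9 of 10 differed between lines with DMSO. In the main fits, 38.6% (451Lu-R) and 37.8% (1205Lu-R) of all genes fell, and 13.3% and 9.8% fell at least 2-fold. The response differed for 49.7% of all genes and the level with DMSO for 75.4%. Shares of all genes under the other settings are not given here. Replicate numbers did not pair the libraries (r of deviations -0.03 and 0.01). Leaving out single libraries gave 7 to 8 members with a response that differed and 9 to 10 that differed with DMSO.

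Of the exceptions, *MCM7*'s difference in response became 0.029 with plain library sizes, which moved the median of all genes to 0.20 (-0.17 relative to it). *MCM10*'s, not called, changed sign without the first 1205Lu-R corin library (-0.037), the second 451Lu-R DMSO library (-0.0075) or the first 451Lu-R corin library (-0.021). *CDT1*'s was called with plain library sizes (0.38, and 0.18 relative to the median). *MCM5* between lines with DMSO was -0.014 with plain library sizes, and was not called with DESeq2 (0.12), no filter (0.09), the replicate block (0.05), or without the second DMSO library of 1205Lu-R (0.10) or of 451Lu-R (0.08). The causes were not tested. With 2 libraries per group, leaving one out assumes that the lone library varies like the others. Order of levels between genes rests on the length chosen, and the canonical lengths were added after seeing the data.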
